A study of Mus musculus with 6 samples.

Results

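The heat shock chaperone genes of mouse N2A-A5 cells were taken by gene symbol. They comprise the HSP70 and HSP110 genes, both cytosolic HSP90 genes, the small heat shock proteins, the mitochondrial chaperonin, J-proteins of classes A, B and C, the BAG cofactors, 3 heat shock factors and the subunits of the TRiC chaperonin. Of 40413 genes in the table, 81 were members, and 4 others with matching symbols (Hspa5, Dnajb9, Dnajb11 and Dnajc3, which encode chaperones of the endoplasmic reticulum, ER) were left out by the rule. N2A (Neuro-2a) is a mouse neuroblastoma line. N2A-A5, called acceptor cells in the labels, was the only line used. RNA was sequenced from 3 libraries of cells differentiated for 96 h in medium with 1% fetal bovine serum and 10 µM retinoic acid, and no blasticidin, and from 3 libraries of the undifferentiated state (0 h), kept in medium with 10% of that serum and blasticidin and without retinoic acid. Retinoic acid, serum, blasticidin and time in culture changed together and cannot be told apart.

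Chaperones bind proteins that are not yet folded or have lost their fold. HSP70 binds short stretches of such chains and lets them go in a cycle driven by ATP. J-proteins start this cycle and nucleotide exchange factors (HSP110 and several BAG proteins) end it. HSP90 takes over clients such as kinases and steroid receptors, while the TRiC ring folds actin and tubulin inside a closed chamber, and the HSPD1 and HSPE1 ring does the same kind of work in the mitochondrial matrix. HSF1 is the factor that switches on the inducible members in stressed cells, and some members (Hspa8, Hsp90ab1) are made in all cells without stress.

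Most of the abundant chaperone genes were lower at 96 h. The 81 members together summed to 15486, 15244 and 15899 CPM (depth-scaled counts, with TMM factors for library makeup) in the 96 h libraries, against 20305, 20662 and 20481 CPM in the 0 h libraries. The sums did not overlap. They made up 2.78% ± 0.06 of protein-coding counts at 96 h and 3.37% ± 0.03 at 0 h. Here and below, ± on levels, shares and ratios is the SD over the 3 libraries of a time. On log2 fold changes, and on rises and falls on the log2 scale, ± is the standard error (SE). In bulk RNA, fewer cells of a type and less RNA per cell cannot be told apart.

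Of the 81 members, 70 had enough counts to be tested. With edgeR's quasi-likelihood test and a Benjamini-Hochberg adjusted p threshold of 0.05, 33 were lower, 15 were higher and 22 did not pass. Among all 13705 genes tested, 28.8% were lower and 28.7% were higher, and among the 11837 protein-coding genes 32.0% were lower and 27.1% were higher. The median log2 fold change (96 h over 0 h) was −0.18 over the tested members, 0.03 over all genes and −0.02 over protein-coding genes. A fall of at least 1.5-fold was called in 9 members (11.3% of all genes) and a rise of at least 1.5-fold in 10 (18.6% of all genes). The 3 libraries at 96 h all lay below the 3 at 0 h in 35 members (31.7% of all genes) and all above them in 17 (32.4% of all genes). Scaling by library size alone moved the median of all genes by −0.25 and gave 44 lower and 9 higher members, against 33 and 15 with TMM factors. With that scaling 5849 of the 13705 genes were lower and 2409 were higher, against 3942 and 3927 with TMM factors.

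The direction went with the level. Of 26 members with a mean of at least 100 CPM, 22 were lower, 1 was higher and 3 did not pass, with a median log2 fold change of −0.43. Of 44 members below that level, 11 were lower, 14 were higher and 19 did not pass, with a median of 0.02. Those counts were near the shares over all genes tested, at any level (28.8% lower and 28.7% higher). Falls were also the commoner direction among the other abundant genes: of the 1245 protein-coding genes with at least 100 CPM, 62.6% were lower and 22.3% were higher.

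**Figure D1:**
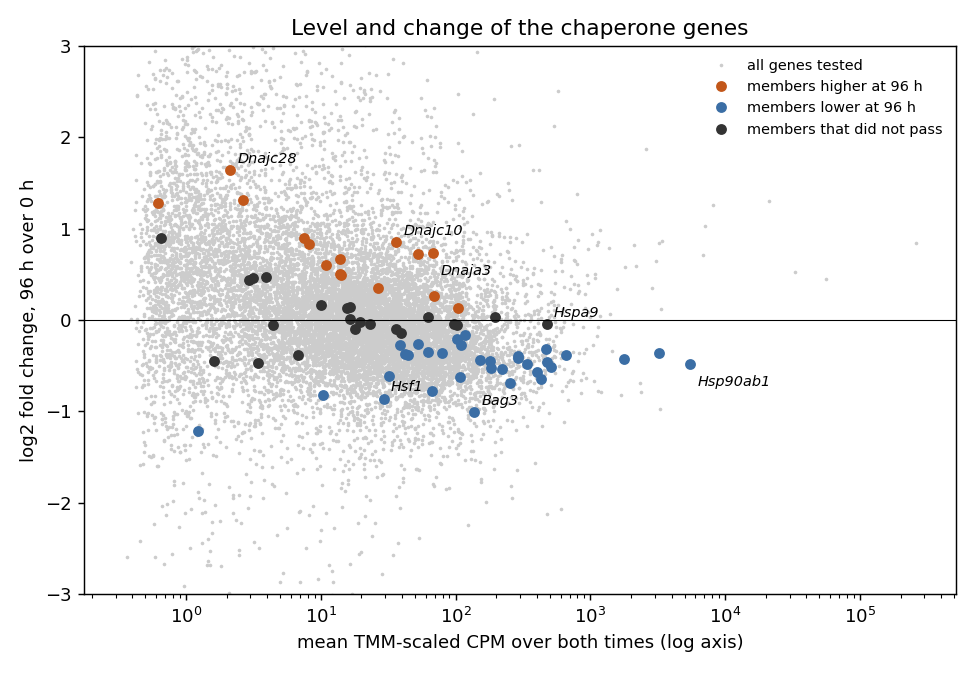
Change of each tested gene (log2 fold change, 96 h over 0 h, vertical axis) against its mean TMM-scaled CPM over both times (log axis), with all tested genes in grey and the members coloured by their call. The axis ends at 3 on the log2 scale in both directions, so 247 genes beyond it are not drawn. Members on the right, at 100 CPM or more, lie mostly below 0, and those on the left lie on both sides.

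The libraries of the 2 times differed in makeup. Totals were 16.8 to 19.0 M counts at 96 h and 17.6 to 20.9 M counts at 0 h (M for mega). Protein-coding genes held 51.2% ± 1.9 of the counts at 96 h and 66.3% ± 2.0 at 0 h, and the predicted gene Gm26917 held 30.5% ± 1.6 at 96 h and 20.2% ± 2.2 at 0 h. Markers are called at 0 here only where all 6 libraries held 0 counts. Of 12 sympathetic neuroblastoma markers, none was at 0, and their summed level was 836 to 861 CPM at 96 h and 1423 to 1484 CPM at 0 h. On average Hand2 (311 CPM at 96 h, 381 CPM at 0 h) and Ret (275 and 544 CPM) were the highest of them. Th averaged 0.699 CPM at 96 h and 0.775 CPM at 0 h, Dbh averaged 0.445 and 4.18 CPM, and Ddc was too low to be tested. Fibroblast markers (7, with Col3a1 and Lum at 0) summed to 10.5 to 12.2 CPM at 96 h and 4.49 to 4.77 CPM at 0 h. Glial markers (7, none at 0) summed to 5.96 to 9.12 CPM at 96 h and 9.04 to 10.5 CPM at 0 h. Macrophage markers (6, Aif1 at 0) summed to at most 0.334 CPM and endothelial markers (5, Cldn5 at 0) to at most 4.09 CPM in any library. The part of these shifts in the chaperone results was not tested, other than by removing Gm26917, mitochondrial and small structural RNA genes before scaling, which left 33 members lower and 15 higher.

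Both cytosolic HSP90 genes fell. Hsp90ab1, the constitutive isoform and the most abundant member, had 4559, 4515 and 4769 CPM at 96 h, against 6259, 6504 and 6539 CPM at 0 h. Its libraries did not overlap, and its log2 fold change was −0.48 ± 0.04 (SE; edgeR adjusted p = 2.06e-07). Hsp90aa1, the isoform that stress induces, had 1532, 1443 and 1594 CPM at 96 h, against 2011, 2087 and 2062 CPM at 0 h. This was a similar fall, also without overlap, with a log2 fold change of −0.43 ± 0.04 (edgeR adjusted p = 1.58e-06). Per kilobase of transcript, Hsp90ab1 stood at 3.95 ± 0.11 times Hsp90aa1 at 96 h and at 4.08 ± 0.04 times at 0 h. The ranges of this ratio over libraries (3.87 to 4.07 at 96 h, 4.05 to 4.13 at 0 h) overlapped. Hsp90ab1 alone held 29.7% of the members' counts at 96 h and 31.4% at 0 h.

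**Figure D2:**
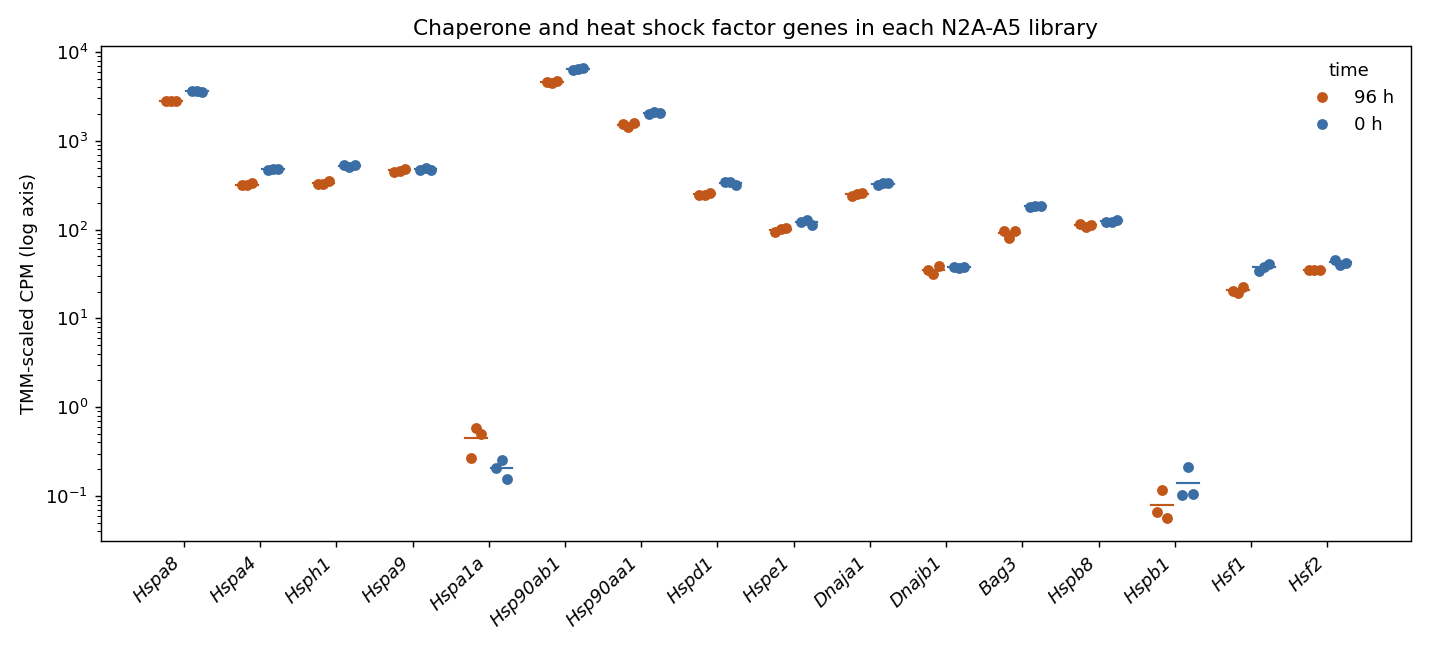
TMM-scaled CPM (log axis) of 16 chaperone and heat shock factor genes in each library, with the 3 libraries at 96 h left of the 3 at 0 h for each gene and bars at the means. The HSP90 genes, Hspa8, Hspa4, Hsph1, Bag3 and Hsf1 lie lower at 96 h without overlap, Hspa9 and Dnajb1 overlap, and Hspa1a and Hspb1 stay below 1 CPM in every library.

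Of 13 HSP70 and HSP110 genes, 10 were tested: 4 were lower, 1 was higher and 5 did not pass. Hspa8, the constitutive cytosolic HSP70 (HSC70), had 2834, 2822 and 2828 CPM at 96 h, against 3666, 3635 and 3577 CPM at 0 h. All 96 h libraries were below all 0 h libraries, and the log2 fold change was −0.36 ± 0.04 (edgeR adjusted p = 1.57e-06). Of the 3 exchange factors of the HSP110 branch, Hsph1 and Hspa4 fell and Hspa4l did not pass. Hsph1 had 328, 329 and 349 CPM at 96 h, against 531, 514 and 528 CPM at 0 h, a log2 fold change of −0.64 ± 0.04 (edgeR adjusted p = 2.2e-08). Hspa4 had 317, 317 and 331 CPM at 96 h, against 468, 485 and 479 CPM at 0 h, a log2 fold change of −0.57 ± 0.04 (edgeR adjusted p = 5.31e-08). Neither gene's libraries overlapped between the times. Hspa14, which encodes an HSP70 found at the ribosome, fell by 0.37 ± 0.08 on the log2 scale.

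Hspa9, the HSP70 of the mitochondrial matrix (mortalin), had 451, 459 and 488 CPM at 96 h, against 473, 492 and 474 CPM at 0 h. The libraries overlapped and the gene did not pass, with a log2 fold change of −0.04 ± 0.04 (edgeR adjusted p = 0.434). Scaled by library size alone, Hspa9 was lower, with a log2 fold change of −0.29 and an adjusted p of 0.00159. Per kilobase, Hspa8 stood at 7.74 ± 0.32 times Hspa9 at 96 h and at 9.64 ± 0.23 times at 0 h, and the ranges (7.39 to 8.01 at 96 h, 9.42 to 9.87 at 0 h) did not overlap. Hspa4l, Hspa12a, Hspa2 and Hspa12b did not pass either, with log2 fold changes of −0.04 to 0.46.

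The stress-inducible HSP70 genes were close to undetected. Hspa1a held 24 counts in all at 96 h and 13 at 0 h, which is 0.266, 0.584 and 0.501 CPM at 96 h and 0.207, 0.256 and 0.157 CPM at 0 h. Its libraries did not overlap, but it was too low to be tested. Hspa1b, which is nearly identical to Hspa1a in sequence, had 0 counts in every library, where a count of 0 allows up to 0.167 to 0.200 CPM at 96 h and 0.128 to 0.157 CPM at 0 h (3 counts, counting error only). Estimation can give the reads of both copies to one of them, so their split is uncertain. Hspa1l, a testis-enriched relative, had 2 counts at 96 h and 0 at 0 h.

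All 8 TRiC subunits fell, under each of the 4 scalings tried and in each of the 6 fits that left out a library. Cct3 had the largest log2 fold change of the 8, with 194, 186 and 200 CPM at 96 h, against 310, 320 and 306 CPM at 0 h. That was a log2 fold change of −0.69 ± 0.04 (edgeR adjusted p = 1.9e-08), without overlap. Tcp1, the founding subunit (CCT1), had 597, 562 and 574 CPM at 96 h, against 745, 755 and 750 CPM at 0 h, a log2 fold change of −0.38 ± 0.04 (edgeR adjusted p = 2.66e-06). Cct2 had the smallest, at −0.31 ± 0.04 (edgeR adjusted p = 1.38e-05), with 410, 412 and 423 CPM at 96 h, against 513, 527 and 507 CPM at 0 h. The log2 fold changes of the other subunits were −0.53 for Cct8, −0.51 for Cct7, −0.48 for Cct6a, −0.46 for Cct5 and −0.45 for Cct4. The 8 genes lie on 8 different chromosomes.

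The finished TRiC ring holds its subunits in equal numbers, but their RNA levels were not equal. Per kilobase, the highest subunit, Tcp1, had 236 ± 7.3 CPM at 96 h and 307 ± 2.1 CPM at 0 h, and the lowest, Cct4, had 60.9 ± 2.5 CPM at 96 h and 83.0 ± 4.0 CPM at 0 h. The level of the highest subunit was 3.83 to 3.94 times that of the lowest in the 96 h libraries and 3.50 to 3.90 times in the 0 h libraries. At 96 h, Cct5 (216 ± 2.4 CPM per kilobase) and Cct2 (212 ± 3.6) were next to each other and close in level. At 0 h the same held for Cct6a (160 ± 4.2) and Cct3 (158 ± 3.6). Whether these neighbours differ within libraries was not tested.

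The mitochondrial chaperonin genes, which are neighbours in opposite orientation, both fell. Hspd1 (HSP60, which forms the ring) had 243, 248 and 260 CPM at 96 h, against 340, 345 and 314 CPM at 0 h, a log2 fold change of −0.41 ± 0.05 (edgeR adjusted p = 6.76e-06). Hspe1 (HSP10, the lid) had 94.6, 101 and 104 CPM at 96 h, against 122, 129 and 112 CPM at 0 h, a log2 fold change of −0.27 ± 0.06 (edgeR adjusted p = 0.00154). Neither gene's libraries overlapped between the times. Per kilobase, Hspd1 stood at 0.801 ± 0.018 times Hspe1 at 96 h and at 0.882 ± 0.022 times at 0 h.

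Heat shock factors bind repeats of a short unit in alternating orientation. The 13 letters GAANNTTCNNGAA (TTCNNGAANNTTC on the other strand, N being any base) spell 3 such units. In RefSeq promoter windows of GRCm38.p6 (250 bases before to 50 after each listed start, 64 of the 81 members matched), this motif was found in 4 members (6.25%) and in 179 of all 27025 genes with a window (0.662%). The 4 are Hspd1, Hspe1, Dnajb6 and Hsph1, and the first pair holds the same letters once, since the starts of Hspd1 and Hspe1 lie head to head with 215 bases between them. The sites are shown because they are the only matches among the members, with the motif in capitals, 5′ to 3′.

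Hspd1-Hspe1: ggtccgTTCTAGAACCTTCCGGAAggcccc

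Dnajb6: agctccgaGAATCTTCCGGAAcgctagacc

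Hsph1: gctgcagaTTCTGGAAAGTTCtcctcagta

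The first lies at chr1:55088053-55088082 (plus strand), between the genes, and its capitals run over 18 bases because 2 overlapping matches are joined. They lie 89 to 72 bases before the Hspe1 start. The Dnajb6 site lies at chr5:29735844-29735873 (plus strand), with capitals 46 to 34 bases before the first listed start. The Hsph1 site lies at chr5:149636279-149636308 (minus strand), with capitals at bases 16 to 28 after the nearer of its 2 listed starts. A match is a description of the letters and not evidence of binding.

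Among 10 members whose products are known from mitochondria, 3 were lower, 3 were higher and 4 did not pass, with a median log2 fold change of 0.05. These shares, 30% in each direction, were near those of all genes tested (28.8% lower and 28.7% higher, median 0.03). The lower ones were Hspd1, Hspe1 and Dnajc11, which encodes a protein of the complex that shapes the inner membrane. The higher ones were Dnaja3, Dnajc15 and Dnajc28. Dnaja3 (Tid1), the J-protein partner of mortalin, had 84.0, 79.7 and 92.2 CPM at 96 h, against 49.3, 54.1 and 50.5 CPM at 0 h. The libraries did not overlap, and the log2 fold change was 0.73 ± 0.07 (edgeR adjusted p = 5.01e-07). Within the matrix, Hspd1 and Hspe1 thus fell and Dnaja3 rose, while Hspa9 did not pass.

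The label of cytosolic and mitochondrial chaperones did not hold for members whose products are known from the ER, of which 7 were listed. Of these 7, 6 were higher, none was lower and Dnajc1 did not pass (log2 fold change −0.14, edgeR adjusted p = 0.0841), with a median of 0.49. Over all genes tested, 28.7% were higher and 28.8% were lower. The ER list was chosen with earlier results of these data known and is not complete. It leaves out Dnajc25, which fell (log2 fold change −0.82, edgeR adjusted p = 9.88e-05), and Dnajc14, which did not pass (0.04), both also linked to the ER. Scaled by library size alone, 3 of the 7 were higher, and Dnajc1 was lower. Dnajb12 (adjusted p = 0.856), Dnajc16 (0.392) and Dnajc18 (0.0857) did not pass with that scaling. Hspa13, an HSP70 of microsomes, had 63.3, 67.9 and 65.3 CPM at 96 h, against 41.9, 39.3 and 37.5 CPM at 0 h, a log2 fold change of 0.73 ± 0.06 (edgeR adjusted p = 3.3e-07). Dnajc10 (ERdj5), which reduces disulfide bonds of misfolded proteins, had 47.8, 45.0 and 47.8 CPM at 96 h, against 27.2, 27.5 and 22.9 CPM at 0 h, a log2 fold change of 0.86 ± 0.08 (edgeR adjusted p = 5.93e-07). Neither gene's libraries overlapped. The J-proteins of the ER membrane Dnajb14 and Dnajb12 rose by 0.67 ± 0.11 and 0.27 ± 0.06 on the log2 scale, and Dnajc18 rose by 0.49 ± 0.11. Dnajc16 rose by 0.36 ± 0.11 (edgeR adjusted p = 0.0118), but did not pass without 0 h replicate 2 (adjusted p = 0.0783) or without 96 h replicate 2 (adjusted p = 0.0717).

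**Figure D3:**
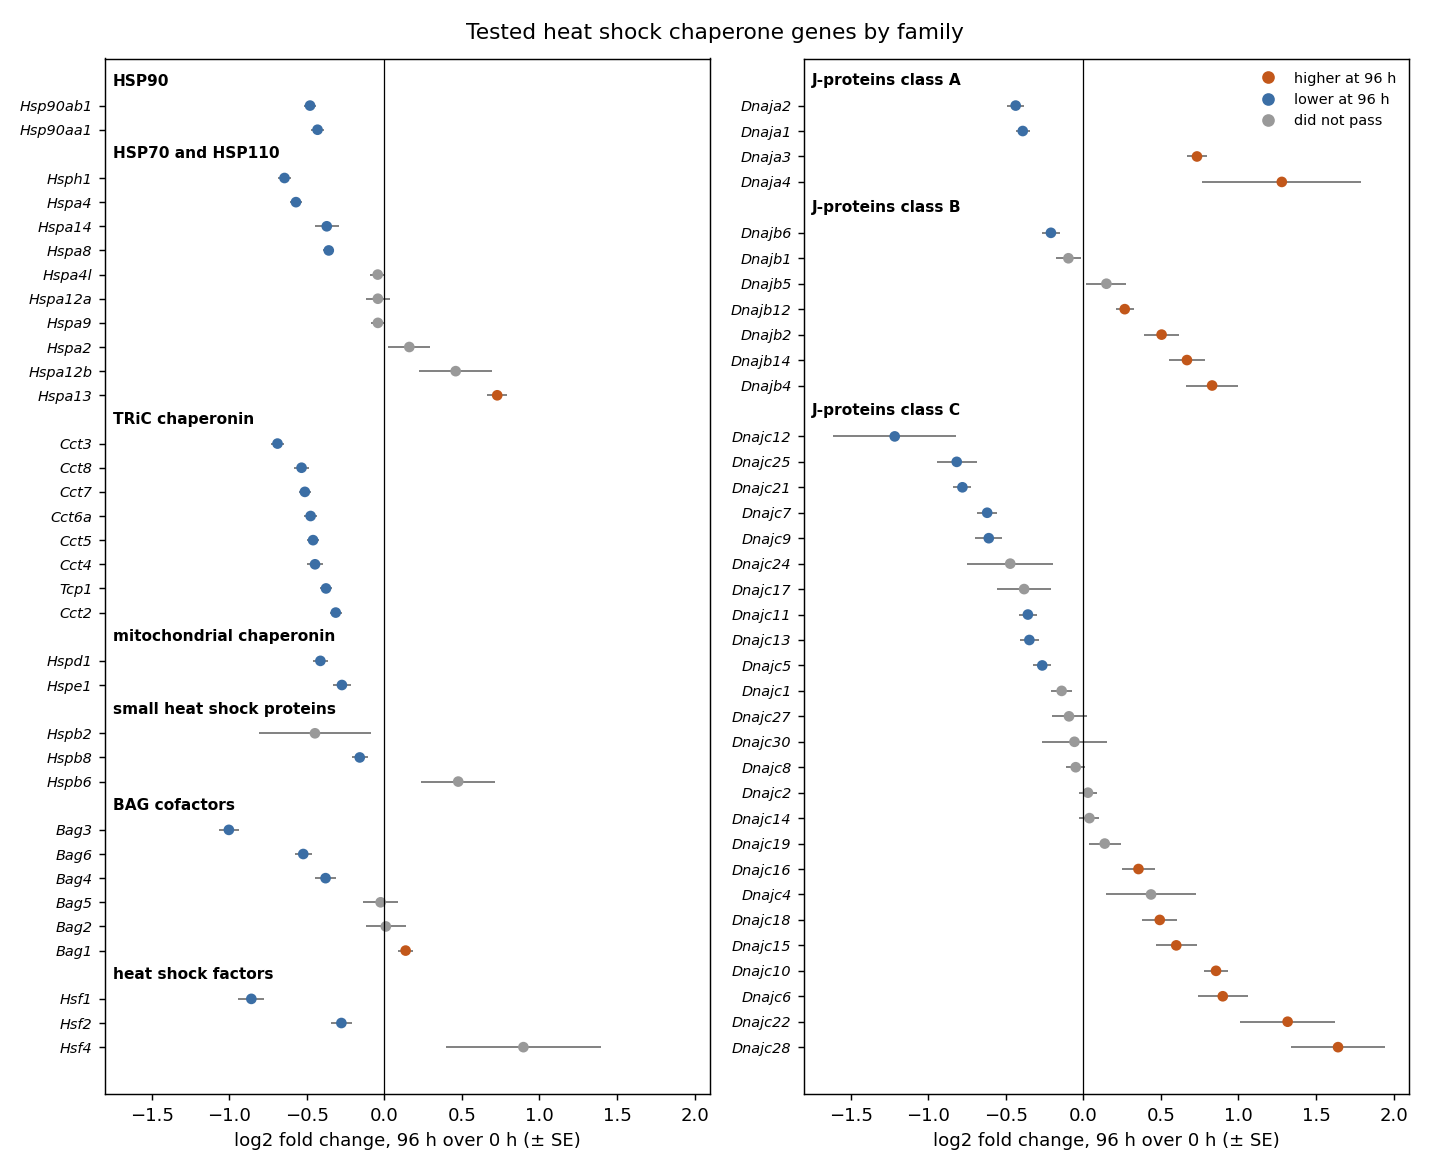
Log2 fold change (96 h over 0 h, horizontal axis, ± SE) of the 70 tested members by family, coloured by their call. The HSP90 and TRiC points all lie left of 0, and the J-protein classes spread to both sides.

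J-proteins showed both directions within each class, as did genes in general (28.8% of all genes tested were lower and 28.7% higher). In class A, Dnaja1 and Dnaja2, the general partners of cytosolic HSP70, fell, and Dnaja3 rose as given above. Dnaja1 had 241, 252 and 260 CPM at 96 h, against 317, 338 and 333 CPM at 0 h, a log2 fold change of −0.39 ± 0.05 (edgeR adjusted p = 5.95e-06). Dnaja2 fell by 0.44 ± 0.05 on the log2 scale, also without overlap. Dnaja4 was at 0.666, 1.23 and 0.724 CPM at 96 h and 0.516, 0.298 and 0.261 CPM at 0 h, and passed narrowly (log2 fold change 1.28 ± 0.51, edgeR adjusted p = 0.0469). It did not pass in the fit without 0 h replicate 2 (adjusted p = 0.141) or 0 h replicate 3 (0.124), nor without 96 h replicate 1 (0.0706), replicate 2 (0.226) or replicate 3 (0.0837).

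In class B, 7 of 11 genes were tested: 4 were higher (Dnajb14, Dnajb4, Dnajb12 and Dnajb2), 1 was lower and 2 did not pass. Dnajb1, the stress-inducible HSP40, had 35.0, 31.6 and 38.8 CPM at 96 h, against 38.0, 36.6 and 38.1 CPM at 0 h. The libraries overlapped, and it did not pass (log2 fold change −0.10 ± 0.08, edgeR adjusted p = 0.309). Dnajb4, a cytosolic relative of Dnajb1, rose by 0.83 ± 0.17 on the log2 scale at a low level, with 9.99, 10.5 and 10.8 CPM at 96 h, against 6.61, 6.47 and 4.49 CPM at 0 h. Dnajb2, which is enriched in neurons, rose by 0.50 ± 0.11. Scaled by library size alone, class B had 2 higher and 2 lower genes: Dnajb2 (adjusted p = 0.0806) and Dnajb12 (0.856) did not pass, and Dnajb1 was lower (log2 fold change −0.35, adjusted p = 0.00512). Dnajb6, which keeps polyglutamine proteins from aggregating, fell by 0.21 ± 0.06 on the log2 scale (edgeR adjusted p = 0.00548), with 101, 91.5 and 93.5 CPM at 96 h, against 116, 108 and 107 CPM at 0 h. With upper-quartile scaling Dnajb6 did not pass (adjusted p = 0.0637). The genes Dnajb3, Dnajb7, Dnajb8 and Dnajb13 were too low to be tested.

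Class C, whose members share little beyond the J domain, had 25 genes, all tested: 8 were lower, 7 were higher and 10 did not pass. At 32% lower and 28% higher, the class was near all genes tested (28.8% and 28.7%). Dnajc21, which acts in maturation of the large ribosomal subunit, had 49.7, 50.3 and 46.7 CPM at 96 h, against 82.8, 86.9 and 82.1 CPM at 0 h, a log2 fold change of −0.78 ± 0.06 (edgeR adjusted p = 6.7e-08). Dnajc7, which binds both HSP70 and HSP90, fell by 0.62 ± 0.06 on the log2 scale, and Dnajc9, a histone chaperone, fell by 0.61 ± 0.09. The libraries of these 3 genes did not overlap between the times. Dnajc25, Dnajc11, Dnajc13 (an endosomal protein) and Dnajc5 (cysteine string protein of synaptic vesicles) fell by 0.82, 0.36, 0.35 and 0.27. Dnajc12, a partner of the aromatic amino acid hydroxylases, was at 0.533 to 0.835 CPM at 96 h and 1.14 to 2.04 CPM at 0 h, and fell by 1.22 ± 0.40 (edgeR adjusted p = 0.0175). It did not pass without 0 h replicate 2 (adjusted p = 0.0660), 0 h replicate 3 (0.0536) or 96 h replicate 1 (0.0676).

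The higher class C genes were mostly expressed at low levels. Besides Dnajc10, Dnajc16 and Dnajc18, Dnajc6 (auxilin, which uncoats clathrin vesicles in neurons) had 9.32, 11.2 and 8.91 CPM at 96 h, against 5.11, 5.07 and 5.59 CPM at 0 h, a log2 fold change of 0.90 ± 0.16 (edgeR adjusted p = 0.00028). Dnajc28 had 3.53, 3.62 and 2.56 CPM at 96 h, against 0.981, 1.06 and 1.04 CPM at 0 h, a log2 fold change of 1.64 ± 0.30 (edgeR adjusted p = 0.000372). Neither gene's libraries overlapped. Dnajc22 and Dnajc15 (a regulator of respiration in the inner mitochondrial membrane) rose by 1.32 and 0.60 on the log2 scale. The 10 genes that did not pass were Dnajc1, Dnajc2, Dnajc4, Dnajc8, Dnajc14, Dnajc17, Dnajc19, Dnajc24, Dnajc27 and Dnajc30, with log2 fold changes of −0.47 to 0.44. Scaled by library size alone, 15 class C genes were lower and 5 were higher.

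Among the 6 BAG cofactors, 3 were lower, 1 was higher and 2 (Bag2 and Bag5) did not pass. Bag3, which hands HSP70 clients to autophagy, had 96.8, 81.2 and 96.4 CPM at 96 h, against 179, 184 and 186 CPM at 0 h. Without overlap, it had a log2 fold change of −1.003 ± 0.064 (edgeR adjusted p = 1.5e-08), and its mean at 96 h was 0.499 times that at 0 h. Bag6, which guards proteins bound for membranes, and Bag4 fell by 0.52 ± 0.06 and 0.38 ± 0.07 on the log2 scale. Bag1 had 109, 108 and 110 CPM at 96 h, against 101, 94.9 and 101 CPM at 0 h, and its small rise (log2 fold change 0.14 ± 0.05, edgeR adjusted p = 0.0308) was not stable when a library was left out. It did not pass in the fit without 0 h replicate 1 (adjusted p = 0.0573) or 0 h replicate 2 (0.149), nor without 96 h replicate 1 (0.0827), replicate 2 (0.0536) or replicate 3 (0.0868), and with scaling by library size alone its log2 fold change was −0.11.

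Of 7 small heat shock proteins, 3 were tested. Hspb8, the partner of BAG3, had 115, 107 and 112 CPM at 96 h, against 123, 122 and 128 CPM at 0 h. It fell by 0.16 ± 0.05 on the log2 scale (edgeR adjusted p = 0.0151), but did not pass without 96 h replicate 2 (adjusted p = 0.0563) or with upper-quartile scaling (0.200). Hspb6 and Hspb2 did not pass. Hspb1 (HSP25), a stress-inducible small heat shock protein, was near the limit of detection, with 4 counts in all at 96 h and 9 at 0 h. Of the 11 members too low to be tested, Hspb3 and Hspa1b were at 0 in every library. With no filter on low counts, none of the other 9 passed (adjusted p 0.357 to 0.874), and none had an unadjusted p under 0.05.

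Hsf1 and Hsf2, the heat shock factors made in most tissues, both fell. Hsf1, the main factor of the heat shock response, had 20.4, 19.5 and 22.4 CPM at 96 h, against 34.5, 37.9 and 40.6 CPM at 0 h, a log2 fold change of −0.86 ± 0.08 (edgeR adjusted p = 1.14e-06). Hsf2 had 35.0, 34.9 and 35.5 CPM at 96 h, against 45.4, 40.3 and 42.1 CPM at 0 h, a log2 fold change of −0.28 ± 0.07 (edgeR adjusted p = 0.00277). Neither gene's libraries overlapped. Per kilobase, Hsf1 stood at 0.738 ± 0.046 times Hsf2 at 96 h and at 1.11 ± 0.14 times at 0 h, without overlap between libraries. Hsf4 did not pass (log2 fold change 0.90 ± 0.50).

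Genes that work with the chaperones were described from 6 lists of 57 genes, of which 55 were tested: 23 were lower, 10 were higher and 22 did not pass. Over all genes tested, 28.8% were lower and 28.7% were higher, which is the background for each list below. Scaled by library size alone, 36 partner genes were lower and 4 were higher, beside 5849 and 2409 of all 13705 genes tested. Of 19 HSP90 co-chaperones, 10 were lower and 1 was higher. Ppid (cyclophilin 40, an HSP90-bound prolyl isomerase) averaged 22.6 ± 1.4 CPM at 96 h and 59.2 ± 3.5 CPM at 0 h, a log2 fold change of −1.38 ± 0.07 (edgeR adjusted p = 2.69e-09). Stip1 (HOP), which links HSP70 to HSP90, had 141, 132 and 139 CPM at 96 h, against 247, 258 and 241 CPM at 0 h, a log2 fold change of −0.86 ± 0.05 (edgeR adjusted p = 4.29e-09). Both log2 fold changes were larger than that of either HSP90 gene, a difference that was not tested. Cdc37l1, a relative of the kinase cofactor Cdc37, rose by 0.29 ± 0.06 on the log2 scale. Cdc37l1 did not pass with scaling by library size alone (log2 fold change 0.04, adjusted p = 0.65), and the list had 15 lower and 0 higher genes.

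All 5 HSP70 cofactors fell, among them St13 (HIP, log2 fold change −0.37 ± 0.04) and Stub1 (the ubiquitin ligase CHIP, −0.45 ± 0.06). Of 9 prefoldin and TRiC partner genes, which deliver actin and tubulin to the ring or act on its cycle, 4 were lower and none was higher. Txndc9 fell by 0.51 ± 0.07 on the log2 scale, Pfdn4 by 0.49 ± 0.07 and Pfdn2 by 0.43 ± 0.06. The fourth, Pdcl (log2 fold change −0.29 ± 0.09), did not pass without 0 h replicate 3 (adjusted p = 0.0616) or without 96 h replicate 2 (adjusted p = 0.0622). With scaling by library size alone, 8 of the 9 prefoldin and TRiC partner genes were lower and 0 were higher. With upper-quartile scaling, 3 were lower and 1 was higher.

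**Figure D4:**
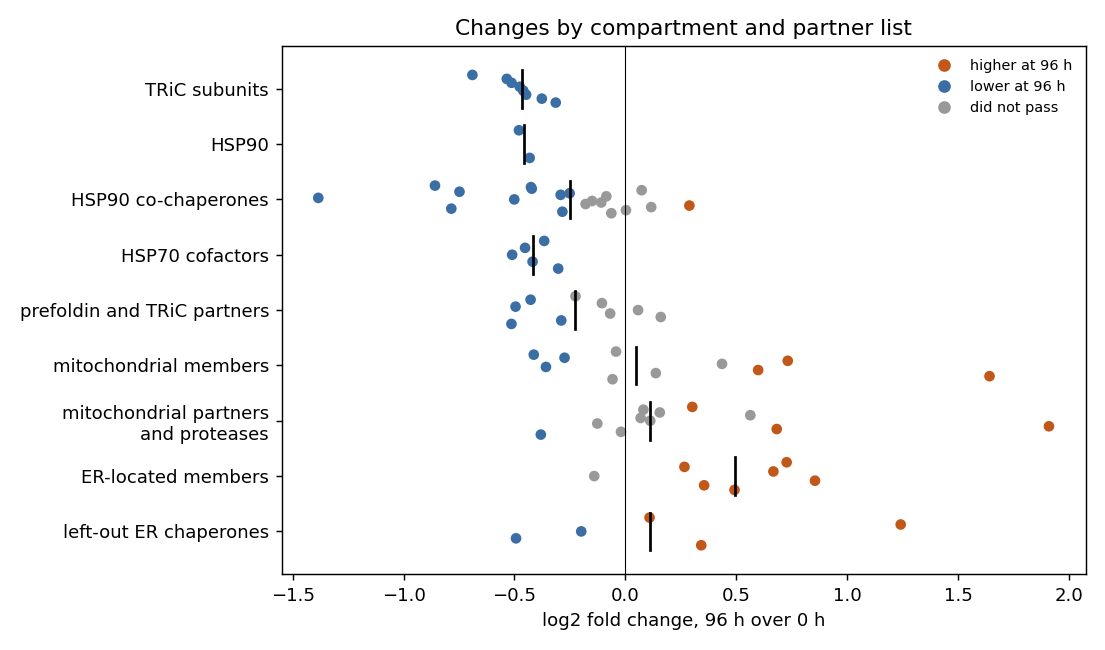
Log2 fold change (96 h over 0 h, horizontal axis) of each tested gene in the HSP90 and TRiC members, the members of mitochondria and ER, and the partner lists, coloured by the call, with the list median as a bar. TRiC, HSP90 and the HSP70 cofactors lie left of 0 throughout, and 6 of the 7 listed ER-located members lie right of it. The ER-linked members Dnajc25 and Dnajc14 are not on that list and are not drawn.

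Of 11 mitochondrial partners and proteases, 3 were higher (27.3%, against 28.7% of all genes tested), 1 was lower (9.09%, against 28.8%) and 7 did not pass. With scaling by library size alone, 2 were higher and 3 were lower. Lonp1, the main protease of the matrix, had 419, 396 and 414 CPM at 96 h, against 112, 110 and 105 CPM at 0 h. The libraries were far apart, with a log2 fold change of 1.91 ± 0.05 (edgeR adjusted p = 3.42e-12). Htra2, a protease of the intermembrane space, rose by 0.68 ± 0.09 on the log2 scale, and Trap1, the mitochondrial HSP90, rose by 0.30 ± 0.06, but did not pass with scaling by library size alone (log2 fold change 0.05, adjusted p = 0.56). Yme1l1, a protease of the inner membrane, fell by 0.38 ± 0.08. The exchange factors of mortalin, Grpel1 and Grpel2, did not pass.

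Other genes of the heat shock response that the rule did not take gave 3 higher, 1 lower and 2 not passed of 6 tested. With scaling by library size alone, 1 was higher and 3 were lower. Ubb, a polyubiquitin gene, rose by 0.36 ± 0.04 on the log2 scale (but did not pass with scaling by library size alone, adjusted p = 0.143), and Serpinh1, a collagen chaperone, rose by 1.62 ± 0.45 at a low level (1.2 ± 0.26 CPM at 96 h and 0.384 ± 0.062 CPM at 0 h). Vcp, an ATPase that extracts ubiquitinated proteins, fell by 0.51 ± 0.04. Of 5 ER chaperones outside the rule, Dnajb9 rose by 1.24 ± 0.09 and Hsp90b1 by 0.34 ± 0.05, and Dnajc3 and Dnajb11 fell by 0.49 ± 0.07 and 0.20 ± 0.05. Hsp90b1 did not pass with scaling by library size alone (log2 fold change 0.09, adjusted p = 0.254), nor did Dnajb11 with upper-quartile scaling (−0.12, adjusted p = 0.0753). Hspa5 (BiP) had 563, 540 and 568 CPM at 96 h, against 496, 538 and 515 CPM at 0 h, and passed narrowly (log2 fold change 0.11 ± 0.04, edgeR adjusted p = 0.0473). It did not pass in the fit without 0 h replicate 1 (adjusted p = 0.235) or 0 h replicate 3 (0.121), nor without 96 h replicate 1 (0.176) or replicate 3 (0.159), and with scaling by library size alone its log2 fold change was −0.14.

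Small RNA genes lie on the same strand inside 4 of these genes. Of 9 such genes inside members (GENCODE M21), 7 were tested and all 7 were higher at 96 h, while none of their hosts was. Inside Hspa8, Snord14c, Snord14d and Snord14e had log2 fold changes of 1.77 ± 0.16, 1.65 ± 0.18 and 1.53 ± 0.23. Inside Cct6a, Snora15 and Gm23245 rose by 3.68 ± 0.49 and 3.11 ± 0.27, inside Tcp1 Gm26130 rose by 2.71 ± 0.51, and inside Hspa9 Gm26109 rose by 2.36 ± 0.57. The same direction was general for this class of RNA: of 346 small structural RNA genes tested, 309 were higher (89.3%). Snord14c and Snord14d are close in sequence, so the split of reads between them is uncertain.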

How the data were processed

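Total RNA from N2A-A5 cells was depleted of ribosomal RNA and sequenced as stranded paired-end libraries, per the labels' protocols. The submitters' processing notes name build mm39 and the tools FastQC (0.12.1), Salmon (1.10.1) and DESeq2 (1.52.0). What each tool was used for, the annotation and the strand setting are not stated there. The estimated counts, as the authors deposited them, are not normalised and cover 40413 genes. Reads of near-identical copies, pseudogenes of abundant chaperones and overlapping genes can be split between them by estimation.

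Counts were rounded to whole numbers, filtered with filterByExpr (13705 genes left), scaled with TMM factors and tested with edgeR 4.0.16's quasi-likelihood test in R 4.3.3, with Benjamini-Hochberg adjustment over all genes tested. The procedure was tested on simulated counts drawn from the 0 h means and the dispersions of these data. Fewer genes were changed in them than were called here, and no result rests on that run. CPM use TMM-scaled library sizes. Each SE is the size of the log2 fold change divided by the square root of the test's F statistic. Depth ran from 16.8 to 20.9 M counts per library. The design text calls the replicates biological. Within each time, every pair of libraries differed by more than sampling noise (chi-square per degree of freedom 6.32 to 12.9).

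Biotypes, transcript lengths, hosts and promoters came from GENCODE M21 and RefSeq annotations of GRCm38, which precedes mm39, and were matched by symbol. Members, lists and role groups were chosen with earlier results of these data known. The text names key members set by role and, by smallest adjusted p, the first 3 in each direction of each family and the first 2 of each partner list, with other members to account for each family. A single gene of the partner lists that this rule would name is not reported here. Alternatives were scaling by upper quartile, by library size alone or by DESeq2 size factors, other filters and tests (DESeq2 1.42.0, limma-voom with limma 3.58.1), a threshold of 0.01, removal of structural and mitochondrial RNA, a replicate block, and leaving out each library.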

Additional observations from a re-analysis of the deposited data

How the results depend on the processing

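Of 48 members that passed, 39 kept their call and direction under all 16 alternatives and 43 in all 6 fits that left out a library. Members lower at 96 h numbered 31 to 44 over all alternatives and 32 to 33 when a library was left out, and members higher numbered 9 to 15 and 12 to 15. Leaving out a library gave 3458 to 3796 higher and 3683 to 3807 lower genes in all, and 9 to 10 higher and 22 to 25 lower partner genes. Scaling by library size alone moved these counts most, to 9 higher members, 2409 higher genes in all, and 4 higher and 36 lower partner genes. Among genes that passed with TMM factors or with this scaling, the log2 fold change turned negative under it for Bag1 (−0.11), Dnajc14 (−0.21), Dnajc2 (−0.22), Aarsd1 (−0.25), Pfdn5 (−0.19), Hsbp1 (−0.23) and Hspa5 (−0.14); some genes that passed in neither, such as Hspa2 and Clpp, changed sign too. That scaling leaves out the composition factors, which differ between the times, and no further cause was tested. With the replicate number as a block, 33 members were lower and 14 were higher, and Dnaja4 (adjusted p = 0.081) and Hspa5 (0.0848) did not pass. Same-numbered libraries did not deviate together (correlations −0.01, 0.01 and −0.00). That gives no sign of pairing in the values, but cannot show whether same-numbered libraries shared a culture. Depth limits the result for the members with fewest counts, where changes were not detectable, and groups of 3 libraries are too small for a test of single outlying values.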
